A study of Homo sapiens with 16 samples.

Results

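PSMD4 and 5 further genes of ubiquitin recognition at the proteasome were followed across all 16 RNA-seq libraries. The 6 genes were taken by their listed symbols: PSMD4 and ADRM1, which encode intrinsic ubiquitin receptors of the proteasome, and RAD23B, UBQLN1, UBQLN2 and UBQLN4, which encode shuttle factors. They are 6 of the 22916 genes in the deposited expression table, and all 6 passed the filter on low counts that left 17104 genes for testing. The cells were HCT116, an established human colon cancer line. The groups were cells gene-edited to carry an Rpn10 truncation, with OTUD5 siRNA (truncation knockdown) or scrambled siRNA (truncation scramble), and unedited cells, labelled Control or WT, with OTUD5 siRNA (WT knockdown) or scrambled siRNA (WT scramble). Each group had 4 libraries. Rpn10 is the protein of PSMD4, and the truncated form has no ubiquitin interacting motif. The OTUD5 siRNA was a mix of 4 sequences, and both siRNAs were reverse transfected at 50 nM with Lipofectamine RNAiMAX and left for 48 hours. All 4 groups therefore share the transfection and the parental line. The labels do not say whether the truncation cells were 1 clone. In truncation against WT, the edit and a difference between clones therefore cannot be told apart. The titles call the libraries of each group bio reps, but nothing in the labels names cultures grown apart. The p-values below rest on the spread between libraries alone.

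The proteasome degrades proteins that carry chains of ubiquitin. Chains are bound by receptors built into its regulatory particle, chiefly Rpn10 (PSMD4), Rpn13 (ADRM1) and Rpn1 (PSMD2). Rpn10 binds through ubiquitin interacting motifs, and Rpn13 also recruits the deubiquitinase UCHL5. Shuttle factors such as RAD23B and the ubiquilins bind ubiquitin at one end and dock on the receptors through a ubiquitin-like domain at the other, which brings cargo to the particle. When proteasome activity is limiting, the transcription factor NRF1 (NFE2L1) is known to raise the proteasome subunit genes together.

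Total counts were 28777244 to 29645663 per library. OTUD5, the targeted deubiquitinase, lay at 19.3 to 22.3 CPM (the deposited TMM-scaled values) in truncation knockdown, 91.7 to 96.7 in truncation scramble, 17.5 to 22.2 in WT knockdown and 83.9 to 91.0 in WT scramble. Its knockdown libraries lay far below its scramble libraries in both genotypes. This holds for the 4 truncation knockdown libraries, whose titles say scramble while their treatment label and library name say OTUD5 siRNA. Of 9 colon epithelial markers, 6 had over 10 counts in every library, while VIL1, CDX1 and LGR5 were at or near 0. Their summed level was 4648 to 5504 CPM in truncation knockdown, 3970 to 4283 in truncation scramble, 4128 to 5046 in WT knockdown and 3882 to 4362 in WT scramble, mostly KRT8. EPCAM moved with the groups, at 109 to 126, 168 to 179.6, 172 to 183 and 209 to 228 CPM in the same order, and CDH1 was lower in truncation libraries (26.4 to 33.1 CPM) than in WT libraries (44.4 to 68.6 CPM). The 5 markers of other cells summed to 41.8 to 69.8, 38.3 to 53.4, 51.2 to 85.9 and 56.4 to 71.2 CPM, with COL1A1 and ALB over 10 counts in every library. The part of these shifts in the values below was not tested. WT knockdown replicate 3 showed 32264 genes with at least 1 count, more than the 25626 to 27765 elsewhere. Replicate 2 of WT knockdown stood farthest from the rest of its group. In such bulk samples, fewer cells with a transcript and less of it per cell cannot be told apart.

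Per kilobase of exon, RAD23B was the most abundant of the 6 in every group, at group means of 116 to 127 CPM per kb, and UBQLN2 the least abundant, at 8.89 to 11.8. The order between them differed by group. In truncation scramble cells ADRM1 stood above PSMD4, at 79.6 to 83.7 against 65.3 to 68.6 CPM per kb over the 4 libraries. In truncation knockdown, WT knockdown and WT scramble cells PSMD4 stood above ADRM1 without overlap. Its means there were 106, 86.8 and 78.1 CPM per kb, against 91.9, 53.8 and 54.7 for ADRM1. UBQLN1 stood above UBQLN4 in both truncation groups, at 55.0 against 34.7 CPM per kb with knockdown and 54.8 against 38.0 with scramble. The pair overlapped in WT knockdown cells, at 34.8 to 40.1 for UBQLN1 and 35.5 to 40.1 for UBQLN4. In WT scramble cells UBQLN4 was the higher, at 39.8 against 33.5 CPM per kb. The length was that of all annotated exons of a gene joined, not of the transcripts expressed, and these orders depend on it. Before division by it, PSMD4 stood above ADRM1 in truncation scramble cells (mean 202 against 174 CPM). UBQLN1 likewise stood above UBQLN4 in WT scramble cells (mean 239 against 155 CPM).

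**Figure D1:**
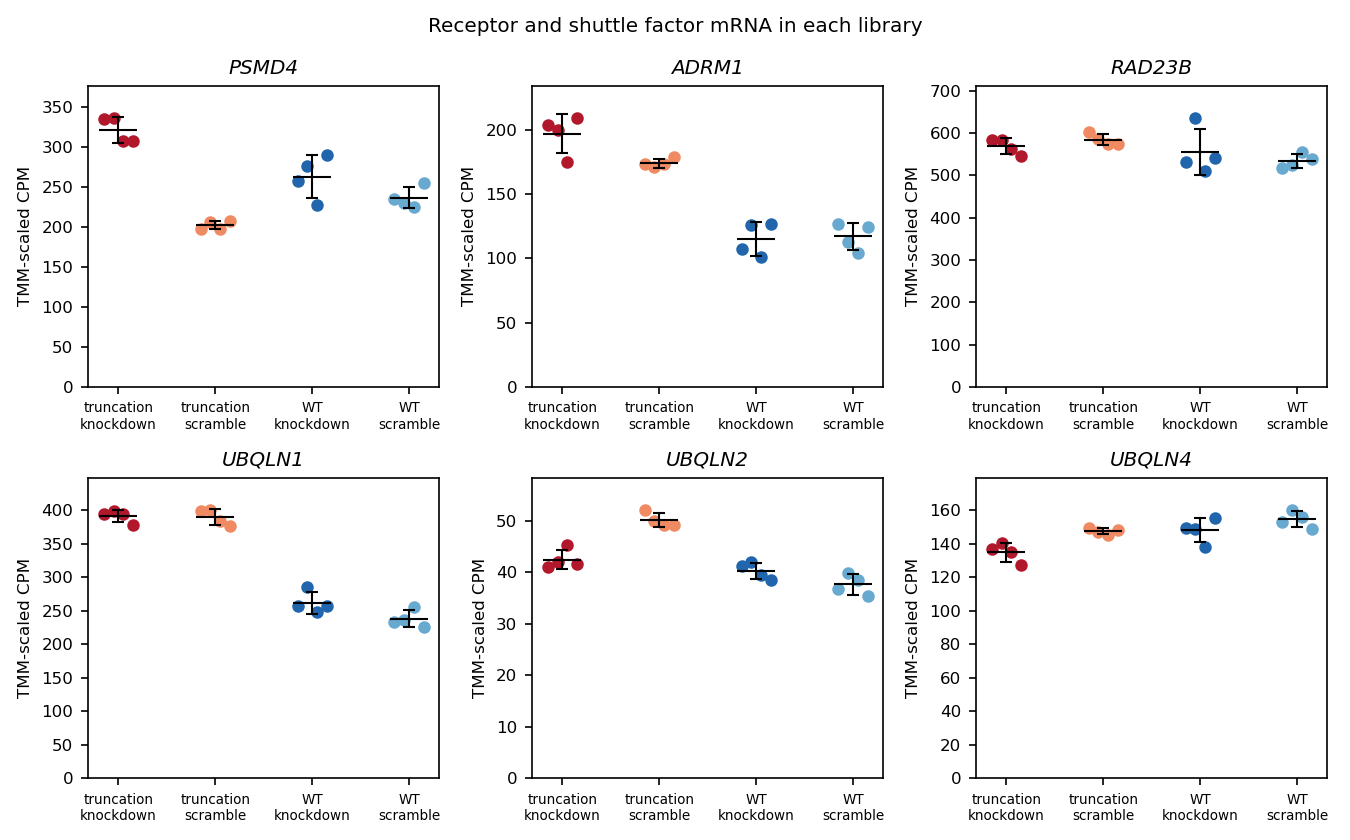
TMM-scaled CPM of the 6 genes in each of the 16 libraries, 1 panel per gene, with a point per library and the mean ± SD of each group of 4. PSMD4 is lowest in truncation scramble (198 to 208 CPM) and highest in truncation knockdown (307 to 336 CPM), UBQLN1 separates by genotype, and RAD23B is nearly level.

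Promoter sequences are shown as a description, and their part in the changes below was not tested. RefSeq promoter windows (GRCh38.p14, 250 bases before to 50 after a start) were at hand for ADRM1, RAD23B, UBQLN1 and UBQLN2, 4 of the 6. They were searched on both strands for TGACNNNGC, the core of the antioxidant response element, which NRF1 and NRF2 bind. The 250 bases before the start are printed 5′ to 3′ on the gene's own strand, with matches in capitals.
ADRM1, chr20:62302646-62302895, plus strand: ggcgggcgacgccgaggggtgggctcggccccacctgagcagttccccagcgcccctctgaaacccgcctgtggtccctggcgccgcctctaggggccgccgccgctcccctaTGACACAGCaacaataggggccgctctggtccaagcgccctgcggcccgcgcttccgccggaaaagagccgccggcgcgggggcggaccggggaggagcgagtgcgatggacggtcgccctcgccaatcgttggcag
UBQLN1, chr9:83707959-83708208, minus strand: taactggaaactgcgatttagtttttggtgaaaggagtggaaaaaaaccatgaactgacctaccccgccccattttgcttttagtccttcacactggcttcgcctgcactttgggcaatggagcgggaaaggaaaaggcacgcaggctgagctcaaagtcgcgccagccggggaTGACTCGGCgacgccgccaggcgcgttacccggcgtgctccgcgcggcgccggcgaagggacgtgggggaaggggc
UBQLN2, chrX:56563377-56563626, plus strand: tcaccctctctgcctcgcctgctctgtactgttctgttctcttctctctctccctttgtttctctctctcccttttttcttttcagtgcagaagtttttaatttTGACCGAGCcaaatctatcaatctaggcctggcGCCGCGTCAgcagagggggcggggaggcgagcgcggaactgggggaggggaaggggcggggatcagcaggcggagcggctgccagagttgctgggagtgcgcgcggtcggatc
The ADRM1 match lay 137 bases before the start in the window printed. It lay 238 bases before the start of another ADRM1 window, which is not printed. The UBQLN1 match lay 76 bases before its start. UBQLN2 had a match at 146 bases and another, on the opposite strand (printed as GCCGCGTCA), at 113. The 3 RAD23B windows had 0 matches. The motif is short: 13.3% of all 35116 windows held it, as did 19.3% of the 11757 tested genes with a window and 9 of 28 genes (32.1%) of the 26S proteasome. Such a match is a description of the sequence, not a binding site.

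Many genes of the whole transcriptome differed in each comparison, and the counts of the 6 stand beside that background. A gene was called at a Benjamini-Hochberg adjusted p under 0.05 by edgeR's quasi-likelihood test over all 17104 genes, and values after ± are standard errors unless named as SD. In truncation against WT scramble cells, 3 of the 6 rose and 1 fell. Of all genes 44.0% were called there, 21.6% higher and 22.4% lower, and the libraries did not overlap for 5 of the 6 and for 42.6% of all genes. In truncation against WT knockdown cells it was again 3 higher and 1 lower, with 45.5% of all genes called, 21.9% higher and 23.6% lower. The libraries did not overlap there for 3 of the 6 and for 35.9% of all genes. Knockdown against scramble in truncation cells gave 2 higher and 1 lower, with 56.7% of all genes called, 28.7% higher and 28.1% lower, and no overlap for 3 of the 6 and for 53.4% of all genes. In WT cells it gave 2 higher and 0 lower, with 50.3% called, 25.2% higher and 25.1% lower, and every one of the 6 overlapped, where 41.0% of all genes did not. Truncation knockdown against WT scramble gave 4 higher and 1 lower, with 66.7% called, 33.2% higher and 33.5% lower, and no overlap for 5 of the 6 and for 59.9% of all genes. The interaction is the log2 change by knockdown in truncation cells with that in WT cells subtracted. It gave 1 higher and 1 lower, with 5.69% of all genes called, 2.05% higher and 3.65% lower. The counts of the 6 are a description, with no test of the set. The median log2 change of the 6 genes was 0.26, 0.19, 0.02, 0.09 and 0.33 in the 5 comparisons of groups, in that order. The median over all tested genes lay between -0.02 and 0.02. These comparisons share groups with each other and are not independent.

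**Figure D2:**
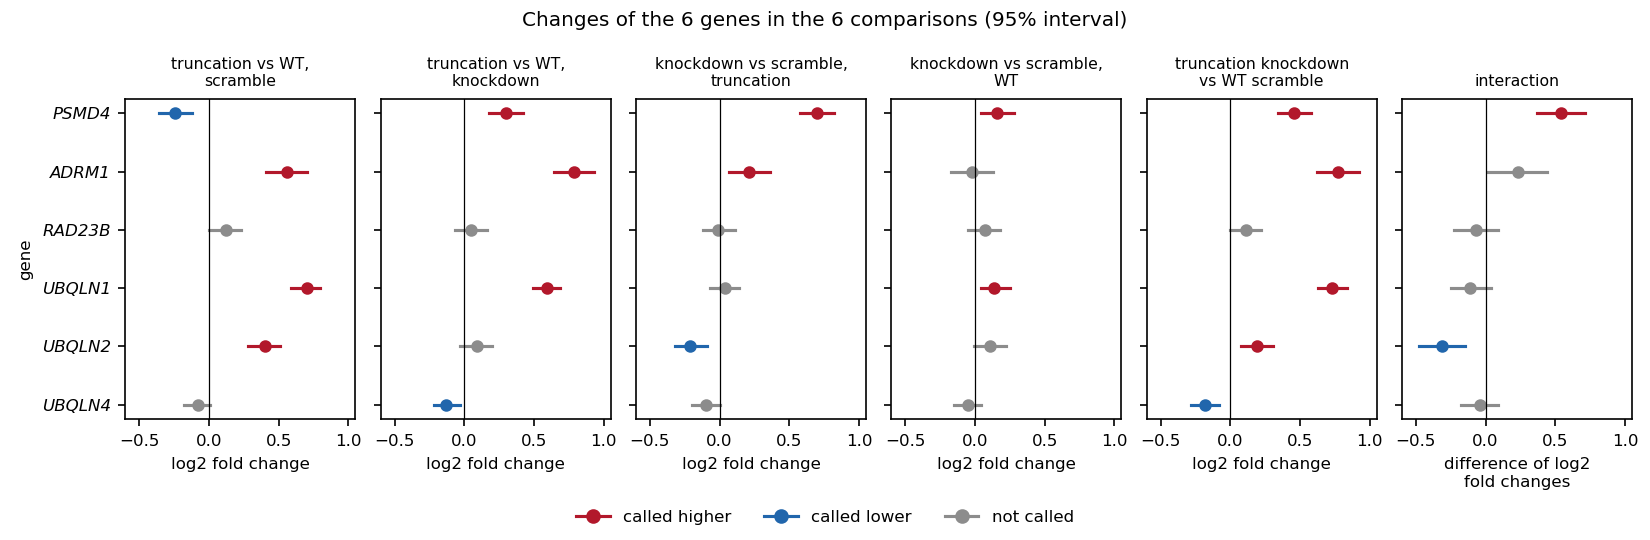
Log2 fold changes of the 6 genes (points) with 95% intervals (lines) in the 6 comparisons, 1 panel each, coloured by call. PSMD4 lies at -0.24 for truncation in scramble cells and at 0.70 for knockdown in truncation cells, and RAD23B is called in no panel.

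PSMD4, the edited gene (ENSG00000159352, GRCh38 chr1:151254703-151267479, plus strand), differed with the genotype and with the siRNA. It stood at 335, 336, 307 and 307 CPM in truncation knockdown and at 198, 206, 198 and 208 CPM in truncation scramble. In WT cells it stood at 257, 276, 228 and 289.7 CPM with knockdown and at 235, 230.0, 225 and 255 CPM with scramble. The truncation knockdown libraries lay above all others and the truncation scramble libraries below all others, while the WT groups overlapped. Knockdown raised PSMD4 by a log2 of 0.70 ± 0.06 in truncation cells (adjusted p 3.1e-10), a fold of 1.63. In WT cells the change was 0.16 ± 0.06 (adjusted p 0.0267), and that call was lost without WT knockdown replicate 2 or 4 or WT scramble replicate 1, 2 or 3, with adjusted p of up to 0.118.

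The direction of the genotype difference in PSMD4 depended on the siRNA. With scramble, the truncation libraries were lower by a log2 of -0.24 ± 0.06 (adjusted p 0.00201). With knockdown, they were higher by 0.30 ± 0.06 (adjusted p 1.6e-04). Neither pair of groups overlapped. The interaction was 0.54 ± 0.08, with a 95% interval of 0.37 to 0.71 and an adjusted p of 3.5e-04. With both changes together, truncation knockdown against WT scramble, PSMD4 was higher by 0.46 ± 0.06 (adjusted p 1.9e-07). Gene counts do not locate reads within the transcript, so in truncation against WT an effect of the edit on what was counted and a change in PSMD4 abundance cannot be told apart. Truncation knockdown and truncation scramble cells carry the same edit. The retrocopy PIPSL, a fusion of PIP5K1A and PSMD4 sequence that could take PSMD4 reads, had 76 to 193 counts, at most 2.53% of those of PSMD4.

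Against the other subunits of the 26S proteasome, PSMD4 was the exception to the genotype difference. Of the 33 subunit genes, 32 rose in truncation against WT scramble cells and PSMD4 alone fell, where 21.6% of all genes were called higher and 22.4% lower. The median over the 33 was 0.79, and PSMC4, an ATPase of the base, was at 1.38 ± 0.06. With knockdown, all 33 were higher in truncation cells, where 21.9% of all genes were called higher. PSMD4 was again last in order. For the siRNA in truncation cells the order was turned round: PSMD4 was the highest of the 33, ahead of the core subunit PSMA2 at 0.63 ± 0.13. There 15 subunit genes rose and 7 fell, with 28.7% of all genes called higher and 28.1% lower, around a median of 0.14. In the interaction 2 of the 33 were called, PSMA2 (0.73 ± 0.20, adjusted p 0.0283) and PSMD4, while 2.05% of all genes were called higher.

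**Figure D3:**
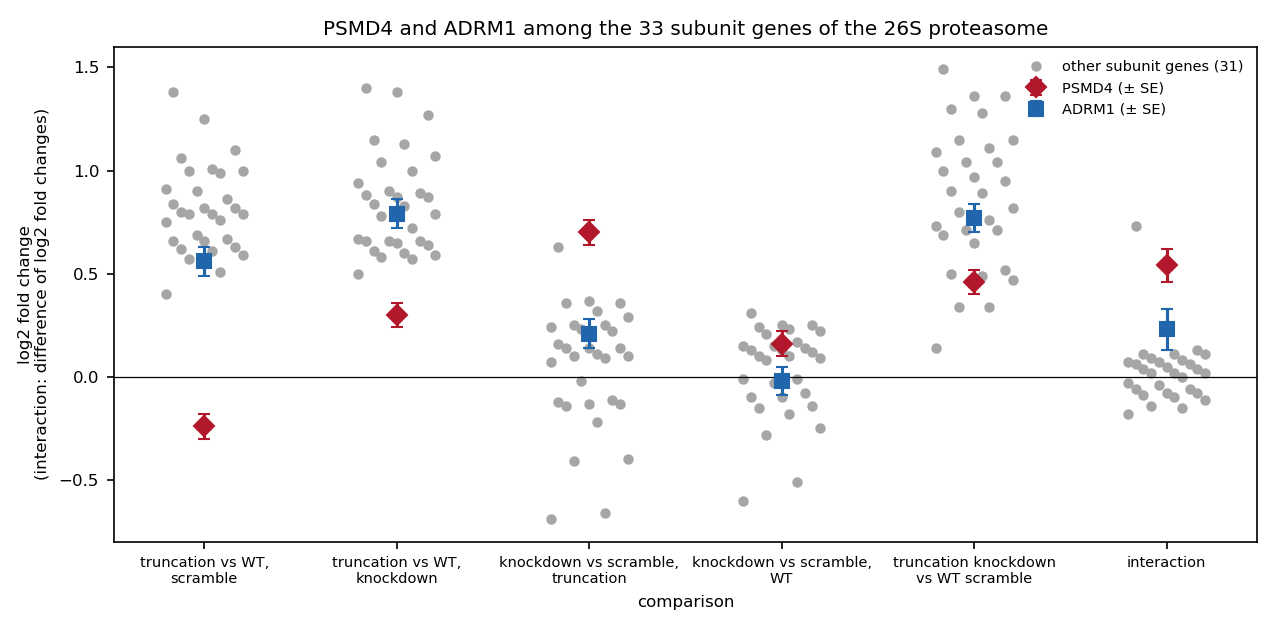
Log2 fold changes of the 33 subunit genes of the 26S proteasome in the 6 comparisons, with PSMD4 (diamonds) and ADRM1 (squares) shown with their standard errors and the 31 others as grey points. PSMD4 is the lowest of the 33 for truncation in scramble cells (-0.24) and the highest for knockdown in truncation cells (0.70).

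The same was read within each library, where the scaling between libraries cancels. The count of PSMD4 divided by the median count of 31 other subunits was 0.868 to 0.938 in truncation knockdown and 0.563 to 0.606 in truncation scramble. In WT cells it was 1.20 to 1.37 with knockdown and 1.23 to 1.32 with scramble. The truncation groups lay apart from each other and below both WT groups. On the log2 scale, truncation minus WT was -1.12 with scramble and -0.51 with knockdown, and knockdown minus scramble was 0.62 in truncation cells. Each had an adjusted p of 0.0357 by a two-sided exact permutation test over 20 such comparisons, where 0.0286 is the smallest unadjusted p that 4 against 4 libraries allow. In WT cells the knockdown difference was 0.01 with the median (adjusted p 0.857) and 0.14 with the mean over the subunits (adjusted p 0.0336), by the same exact test.

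ADRM1 (ENSG00000130706, GRCh38 chr20:62302093-62308862, plus strand) encodes Rpn13, the other intrinsic receptor among the 6. It followed the genotype with the rest of the proteasome. It stood at 204, 199.6, 175 and 209 CPM in truncation knockdown and at 173, 171, 173 and 179 CPM in truncation scramble. It stood at 107, 126, 101 and 127 CPM in WT knockdown and at 127, 113, 104 and 124 CPM in WT scramble. Every truncation library lay above every WT library, and within each genotype the siRNA groups overlapped. ADRM1 was higher in truncation than in WT cells. The log2 change was 0.56 ± 0.07 with scramble (adjusted p 8.3e-07) and 0.79 ± 0.07 with knockdown (adjusted p 2.7e-09). Knockdown in truncation cells gave 0.21 ± 0.07 (adjusted p 0.0133), a call that 6 of the 16 fits leaving out 1 library lost, with adjusted p of up to 0.0841. Those fits left out truncation knockdown replicate 1, 2 or 4 or truncation scramble replicate 1, 2 or 3. Knockdown in WT cells gave -0.02 ± 0.07 (95% interval -0.17 to 0.13). The interaction of 0.23 ± 0.10 did not pass (adjusted p 0.197). Truncation knockdown was above WT scramble by 0.77 ± 0.07 (adjusted p 9.4e-10).

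ADRM1 shares 244 exon bases with LAMA5, a laminin chain gene on the opposite strand. The strand setting of the counting is not given in the sources used here, so reads in those bases cannot be assigned to either gene. LAMA5 had 4488 to 14429 counts and was lower, at a log2 of -0.36 ± 0.09 for truncation with scramble and -0.99 ± 0.09 and -1.02 ± 0.09 for knockdown in truncation and WT cells. Its part in the ADRM1 values was not tested.

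The balance of the receptor pair differed in every comparison of groups. PSMD4 had 1.47 to 1.75 counts per ADRM1 count in truncation knockdown and 1.14 to 1.21 in truncation scramble. The ratio was 2.19 to 2.41 in WT knockdown and 1.85 to 2.17 in WT scramble. None of the 4 groups overlapped another. Truncation minus WT was -0.80 on the log2 scale with scramble and -0.48 with knockdown, and knockdown minus scramble was 0.49 in truncation cells and 0.17 in WT cells. All had an adjusted p of 0.0357 by the exact permutation test. These ratios are of counts and are not corrected for transcript length.

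**Figure D4:**
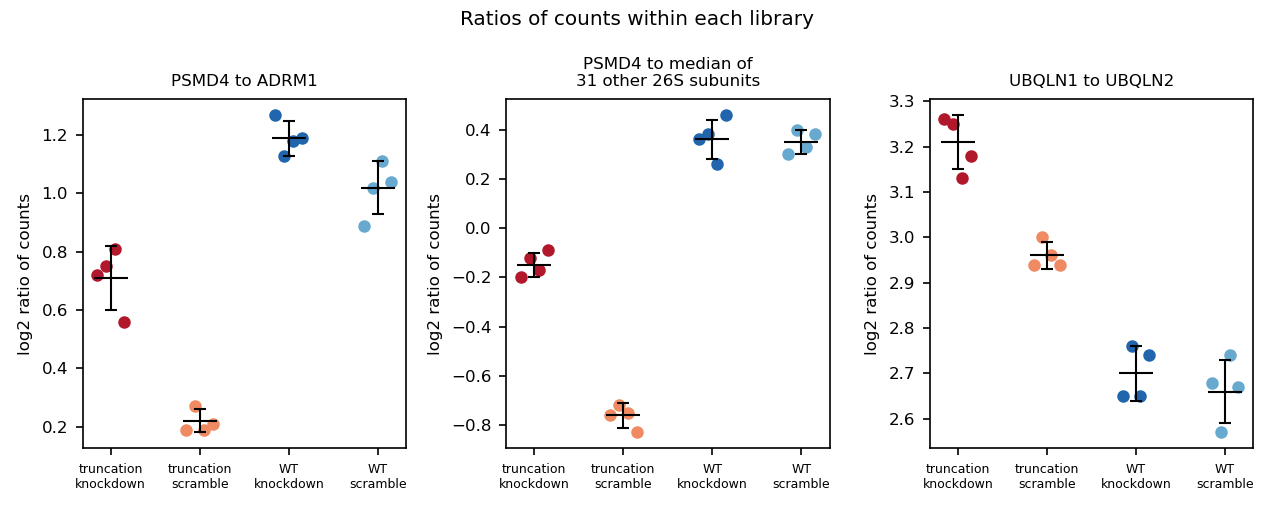
Log2 ratios of counts within each library for PSMD4 to ADRM1, PSMD4 to the median of 31 other subunits and UBQLN1 to UBQLN2, with a point per library and the mean ± SD of each group of 4. The ratios of PSMD4 are lowest in truncation scramble (means 0.22 and -0.76), and the ratio of the ubiquilins is highest in truncation knockdown (mean 3.21).

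RAD23B (ENSG00000119318, GRCh38 chr9:107283137-107332194, plus strand) encodes a shuttle factor that also partners the DNA damage sensor XPC. It was called in none of the 6 comparisons. It stood at 584, 583, 562 and 545 CPM in truncation knockdown and at 602, 587, 575 and 574 CPM in truncation scramble. It stood at 532, 635, 511 and 541 CPM in WT knockdown and at 518, 524, 555 and 538 CPM in WT scramble. The WT knockdown group was the widest, through replicate 2. Truncation against WT with scramble gave 0.12 ± 0.05 (adjusted p 0.0855) with no overlap between those groups, an adjusted p of 0.0265 without WT knockdown replicate 2 and 0.0133 with only the groups compared. Truncation knockdown against WT scramble gave 0.11 ± 0.05 (adjusted p 0.0763), and an adjusted p of 0.026 without that library and 0.0481 with a stricter filter on low counts. The other changes lay between -0.07 and 0.07, and the 95% intervals of the 4 among them lay within -0.23 and 0.18.

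UBQLN1 (ENSG00000135018, GRCh38 chr9:83659963-83708203, minus strand), the most abundant of the ubiquilins per kilobase in truncation cells, separated by genotype. Ubiquilins are shuttle factors that also hold hydrophobic membrane proteins in the cytosol. UBQLN1 stood at 394, 399, 394 and 378 CPM in truncation knockdown and at 399, 401, 384 and 377 CPM in truncation scramble. It stood at 257, 285, 248 and 257 CPM in WT knockdown and at 234, 237, 256 and 226 CPM in WT scramble. The lowest truncation library stood at 377 CPM and the highest WT library at 285. The log2 change for truncation was 0.70 ± 0.05 with scramble (adjusted p 4.1e-11) and 0.59 ± 0.05 with knockdown (adjusted p 7.9e-10). Knockdown gave 0.04 ± 0.05 in truncation cells (95% interval -0.07 to 0.14) and 0.14 ± 0.05 in WT cells (adjusted p 0.0201). The WT call was lost without WT knockdown replicate 2, WT scramble replicate 1 or WT scramble replicate 4, with adjusted p of up to 0.0822. Truncation knockdown was above WT scramble by 0.73 ± 0.05 (adjusted p 3.2e-12). The antisense gene UBQLN1-AS1 had 25 to 70 counts, at most 0.669% of those of UBQLN1.

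UBQLN2 (ENSG00000188021, GRCh38 chrX:56563639-56567868, plus strand) is an intronless ubiquilin gene known from inherited motor neuron disease. With scramble it was higher in truncation than in WT cells, but not detectably so with knockdown. It stood at 41.0, 41.9, 45.2 and 41.6 CPM in truncation knockdown and at 52.1, 49.9, 49.2 and 49.1 CPM in truncation scramble. It stood at 41.1, 42.0, 39.4 and 38.4 CPM in WT knockdown and at 36.7, 39.9, 38.4 and 35.4 CPM in WT scramble. The truncation scramble group lay above the other three, which overlapped in part. Truncation gave 0.40 ± 0.06 with scramble (adjusted p 2.5e-06) and 0.09 ± 0.06 with knockdown (adjusted p 0.221). Knockdown gave -0.21 ± 0.06 in truncation cells (adjusted p 0.00273) and 0.11 ± 0.06 in WT cells (adjusted p 0.114). The interaction was -0.31 ± 0.08, with a 95% interval of -0.48 to -0.15 and an adjusted p of 0.0184. It had the opposite sign to that of PSMD4. Truncation knockdown was still above WT scramble, by 0.19 ± 0.06 (adjusted p 0.00374).

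Within libraries, UBQLN1 had 8.73 to 9.59 counts per UBQLN2 count in truncation knockdown and 7.66 to 8.03 in truncation scramble. The ratio was 6.26 to 6.78 in WT knockdown and 5.94 to 6.67 in WT scramble. The truncation groups lay apart from each other and above the WT groups, which overlapped. Truncation minus WT was 0.51 on the log2 scale with knockdown and 0.30 with scramble, and knockdown minus scramble was 0.24 in truncation cells, each with an adjusted p of 0.0357 by the exact permutation test. In WT cells that difference was 0.04 (adjusted p 0.635 by the same exact test).

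UBQLN4 (ENSG00000160803, GRCh38 chr1:156035301-156053794, minus strand), a ubiquilin known to handle mislocalised proteins, changed by small amounts. It stood at 137, 140.3, 135 and 127 CPM in truncation knockdown and at 149.5, 147, 145 and 148 CPM in truncation scramble. It stood at 149.6, 149, 138 and 155 CPM in WT knockdown and at 153, 160.2, 156 and 149 CPM in WT scramble. The truncation knockdown group was the lowest, and it overlapped WT knockdown. Truncation knockdown against WT scramble gave -0.18 ± 0.05 (adjusted p 0.00159). Truncation with knockdown gave -0.13 ± 0.05 (adjusted p 0.0306), lost without truncation knockdown replicate 4 (adjusted p 0.0805) or WT knockdown replicate 4 (adjusted p 0.0842), with no filter on low counts (adjusted p 0.161) and with only the groups compared (adjusted p 0.0924). Truncation with scramble gave -0.08 ± 0.05 (adjusted p 0.163), and -0.13 ± 0.05 (adjusted p 0.0231) with upper-quartile scaling, which moved the median of all genes to -0.07. Knockdown in truncation cells gave -0.10 ± 0.05 (adjusted p 0.0787), which passed without truncation knockdown replicate 1 or 2 or WT knockdown replicate 1 or 3, at adjusted p of 0.0307 to 0.0475.

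Other receptors and shuttle factors split by role. Of 9 listed, 6 passed the filter on low counts and were tested. In truncation against WT scramble cells 2 rose and 1 fell around a median of 0.12, with 44.0% of all genes called. PSMD2, which is Rpn1, was at 1.01 ± 0.05, and its partner PSMD1, which is Rpn2, at 0.66 ± 0.05. The shuttle protease DDI2, which cuts NRF1 into its active form, fell by 0.19 on the log2 scale (adjusted p 0.0488). With knockdown in truncation cells 2 rose and 3 fell, and in WT cells 3 rose and 3 fell, with medians of -0.03 and -0.02, where 56.7% and 50.3% of all genes were called. DDI2 changed by -0.72 ± 0.08 and -0.56 ± 0.08 there. NUB1, which brings NEDD8 and FAT10 conjugates to the proteasome, changed by 0.47 ± 0.05 in truncation cells and 0.33 ± 0.05 in WT cells. MIDN, a factor for ubiquitin-independent delivery of nuclear proteins, changed by 0.48 ± 0.05 and 0.33 ± 0.05 in truncation and WT cells. In truncation against WT knockdown cells 3 of the 6 were higher and 1 lower, where 45.5% of all genes were called, 21.9% higher and 23.6% lower. DDI2 was at -0.35 ± 0.08 there. The interaction of MIDN, 0.16 ± 0.07, did not pass (adjusted p 0.225).

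Enzymes and factors that dock on the regulatory particle included 6 that rose with truncation. Of 10 tested, 6 rose and none fell with scramble (median 0.39), and 6 rose and 1 fell with knockdown (median 0.32), where 21.6% and 21.9% of all genes were called higher. With scramble the thioredoxin-like protein TXNL1 was at 0.95 ± 0.07, the lid deubiquitinase PSMD14 at 0.84 ± 0.05, the activator PSME4 at 0.73 ± 0.06 and the activating factor ZFAND5 at 0.71 ± 0.05. UCHL5, the deubiquitinase that ADRM1 recruits, did not follow ADRM1 upward. Its change was -0.06 ± 0.06 with scramble (adjusted p 0.452) and -0.21 ± 0.06 with knockdown (adjusted p 0.00615). The siRNA lowered both UCHL5 and PSMD14. UCHL5 changed by -0.56 ± 0.06 in truncation and -0.41 ± 0.06 in WT cells, and PSMD14 by -0.69 ± 0.05 and -0.51 ± 0.05. Over the 10, the siRNA gave 4 higher and 2 lower in truncation cells and 3 higher and 2 lower in WT cells, where 56.7% and 50.3% of all genes were called.

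Among receptors that recognise ubiquitin for autophagy, the other route of degradation, genes rose with truncation and with the siRNA. Of 6 genes, 4 rose with truncation in scramble cells (median 0.54) and 6 in knockdown cells (median 0.49), where 21.6% and 21.9% of all genes were called higher. With scramble NBR1 (0.06 ± 0.05) and TOLLIP (0.12 ± 0.06) were not called. SQSTM1, the p62 receptor, was at 1.03 ± 0.06 and 1.10 ± 0.06, and TAX1BP1 at 0.67 ± 0.06 and 0.69 ± 0.06. Knockdown raised 5 of the 6 in truncation cells (median 0.46) and 5 in WT cells (median 0.42), where 28.7% and 25.2% of all genes were called higher. NBR1 was at 0.63 ± 0.05 and 0.40 ± 0.05. OPTN was the exception there, at -0.05 ± 0.06 and 0.04 ± 0.06. None fell in any comparison of groups.

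Partners of the shuttle factors moved in both directions with the siRNA. Of 8, 2 rose and none fell with truncation in scramble cells (median 0.02), with 21.6% of all genes called higher. These were NGLY1, the cytosolic glycanase that RAD23B binds (0.71 ± 0.07), and CETN2, a subunit of the XPC complex (0.57 ± 0.07). XPC itself was at 0.07 ± 0.05 there, and was raised by the siRNA, by 0.56 ± 0.05 in truncation and 0.58 ± 0.05 in WT cells. UBL4A, a subunit of the BAG6 complex for tail-anchored proteins, changed by -0.55 ± 0.06 and -0.45 ± 0.06 with the siRNA. HERPUD1, an endoplasmic reticulum protein that binds ubiquilins, rose by 0.42 ± 0.07 in truncation cells and was at 0.07 ± 0.08 in WT cells, with an interaction of 0.35 ± 0.11 that did not pass (adjusted p 0.0503). The siRNA gave 3 higher and 2 lower in truncation cells and 2 higher and 2 lower in WT cells, where 56.7% and 50.3% of all genes were called.

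Genes that encode ubiquitin itself were read too. With truncation in scramble cells the polyubiquitin gene UBB rose (0.40 ± 0.06), and RPS27A, which encodes ubiquitin fused to a ribosomal protein, fell (-0.22 ± 0.06). With the siRNA UBB rose by 0.33 ± 0.06 in truncation and 0.19 ± 0.06 in WT cells. RPS27A was at -0.13 ± 0.06 and -0.11 ± 0.06 there and was not called.

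Likeness of pattern was measured over the 16 libraries as the root mean square difference of centred log2 CPM, among 10035 well-expressed genes. For PSMD4 the closest were TMEM18 (0.091), WASH8P (0.096), VPS37B (0.098), PPP1R37 (0.101) and WASH9P (0.101), and no other proteasome gene was among them. WASH8P and WASH9P belong to a family of near-identical copies, so their own values are uncertain. TMEM18, whose knockdown changes were 0.56 in truncation and 0.26 in WT cells, differed by -0.21 for truncation in scramble cells (log2). For the other receptor and for UBQLN1 a proteasome gene was close: PSMA7 was next after CLTB for ADRM1 (0.078 and 0.071), and PSMD1 was first for UBQLN1 (0.060). For RAD23B the closest were TPM3 (0.042) and KMT5A (0.048), for UBQLN2 SMARCD1 and CAST (0.068 each), and for UBQLN4 ATG16L1 (0.045) and PHF13 (0.050). Over the 4 group means in place of 16 libraries these 6 ranked between 25 and 212, while PSMD1 ranked 1, CLTB 2 and PSMA7 8. Among the 6 genes themselves, ADRM1 and UBQLN1 were the closest relative to all genes, at 0.149, where the median distance of all genes from ADRM1 was 0.414. PSMD4 was 0.375 from ADRM1 and 0.396 from UBQLN1, both beyond its median distance of 0.330 to all genes.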

How the data were processed

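The authors deposited raw gene counts for 16 libraries and signal values, which are TMM-scaled CPM. CPM recomputed from the counts equalled the deposited signal (largest relative difference 5.0e-15). Per the submitters' processing notes, STAR 2.7.3a, DESeq2, edgeR, limma and hg38 were used. How reads were counted, and with which annotation and strand setting, is not given in the sources used here. Libraries were grouped by library name and treatment label, since 4 titles say scramble where both of these say OTUD5 siRNA.

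Of 60668 genes, filterByExpr kept 17104, holding at least 99.8% of every library's counts. The quasi-likelihood model of edgeR 4.0.16 (R 4.3.3) was fitted to TMM-scaled counts, with a coefficient for each group and 12 residual degrees of freedom. Tests were two-sided, with Benjamini-Hochberg adjustment over all tested genes. The common coefficient of variation was 7.25%. Standard errors were derived from the log2 fold change and the square root of its F. Replicate pairs differed by more than sampling noise (chi-square per degree of freedom 2.85 to 22.9). Ratios were of log2(count + 0.5) and were tested by exact permutation. Likeness was computed where the mean log2 CPM reached 3. Coordinates and exon lengths are from GENCODE on GRCh38, and promoters from RefSeq. Alternatives used DESeq2 1.42.0, limma 3.58.1, other scaling and filters, and libraries left out.

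The 6 genes, the lists and the tests were chosen with earlier results of these data known. Named genes are the 6, OTUD5, up to 4 called genes per list and comparison with the largest changes, and the 5 (PSMD4) or 2 (others) most alike. List genes that did not pass, and genes that overlap or copy one of the 6, were named beside these after their values were seen. Some genes that this rule names are left out here.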

Additional observations from a re-analysis of the deposited data

Results flagged for a closer look

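The knockdown effect on PSMD4 differed between genotypes: it was 0.70 ± 0.06 in truncation cells and 0.16 ± 0.06 in WT cells (log2), an interaction of 0.54 with an adjusted p of 3.5e-04 by edgeR. The knockdown effect on UBQLN2 also differed, at -0.21 ± 0.06 in truncation cells and 0.11 ± 0.06 in WT cells, an interaction of -0.31 with an adjusted p of 0.0184. Of all tested genes, 5.69% had a called interaction. From the 4 groups of libraries, 40 sets of 4 values were checked for a library far from the rest of its set. The check flagged 0, where chance alone gives about 1 in 20. With 4 values to a set, it can miss an outlying library. WT knockdown replicate 2 stood farthest from the rest of its group, and WT knockdown replicate 3 had the most genes with a count.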

How the results depend on the processing

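Of 36 log2 changes of the 6 genes, 28 kept their side of the threshold under each alternative. With another pseudocount or summary, 19 of 20 ratio differences did. With 1 library left out the ratios had no test, since the exact test could not then pass. No called change or ratio turned its direction. The knockdown in WT cells depended most on the setting. There 2 of the 6 genes were called, 0 with no filter on low counts and 0 with only the groups compared, 0 to 2 when 1 library was left out, and 1 without WT knockdown replicates 2 and 3, a choice made after seeing the data. PSMD4 there stayed at 0.16 with no filter (adjusted p 0.0665) and with only the groups compared (adjusted p 0.0643), and lay between 0.11 and 0.21 with 1 library left out. Its ratio to the other subunits there was 0.14 with the mean in place of the median. The cause was not tested. Of the 5 genes most like PSMD4, 1 remained among the 5 when group means replaced libraries.

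Same-numbered libraries of different groups did not deviate together throughout (correlations -0.241 to 0.369 over 24 pairs, 9 over 0.1). Their median was 0.072, against -0.022 for pairs with other numbers. Libraries numbered 3 did deviate together in part, at 0.083 to 0.335. The labels name no shared culture, so the main fit did not pair libraries by number. With the replicate number as a block, 4, 2, 3, 4, 5 and 2 of the 6 genes were called in the 6 comparisons, the same numbers as without it, and PSMD4 stood at -0.24, 0.16, 0.70, 0.30, 0.46 and 0.54. Counts were lowest for UBQLN2, down to 991 in a library, so its values carry the most counting error.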
